A study of Mus musculus with 9 samples.

Results

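The 10 genes described here encode the catalytic core and the variant-specific subunits of Polycomb repressive complex 1 (PRC1): the RING ligases Rnf2 and Ring1, the paralogs Rybp and Yaf2, the PRC1.1 subunits Kdm2b and Bcor, and the PCGF subunits Pcgf1, Pcgf3, Pcgf5 and Pcgf6. They were chosen by name, and all 10 were found by Entrez identifier among the 27179 genes of the count table. They were measured in alveolar macrophages, phagocytes that live in the airspaces and clear surfactant, described by the submitters as foetal-derived and isolated by fluorescence-activated cell sorting from mice aged 1 week. There were 4 wild type libraries and 5 with the genotype Suz12 cKO, a conditional knockout of the PRC2 subunit Suz12, all on a C57BL/6 background. For the Cre driver, the deleted exons, the sex of the mice and any pooling of animals, nothing is stated in the sources used here. The series text calls the libraries biological replicates.

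PRC1 is a histone ligase. RING1B (encoded by Rnf2) or RING1A (encoded by Ring1), paired with a PCGF protein, places ubiquitin on a lysine of histone H2A at silent genes. In canonical PRC1 the pair is joined to CBX proteins that read the methyl mark of PRC2, whereas in variant PRC1 it is joined to RYBP or YAF2, which take the CBX place and do not need that mark. The PCGF protein sets the kind of variant complex, and in PRC1.1 the DNA-binding protein KDM2B brings PCGF1 and the corepressor BCOR to unmethylated CpG islands. The comparison asked how transcripts of these subunits differed between wild type and Suz12 cKO macrophages.

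Sequence of both paralog pairs is shown first, because the members of each pair are compared below and because reads of paralogs can be hard to tell apart. The coding sequences of Rnf2 and Ring1 (GENCODE M21) were identical at 68% of 996 aligned bases, and those of Rybp and Yaf2 at 74.4% of 539. The most similar ungapped 60 bases of each pair are given below, with the bases that differ in capitals and positions counted from 1 at the first base of the start codon. For the ligases, the stretch differs at 12 bases (positions 230 to 289 of Rnf2 and 221 to 280 of Ring1).
Rnf2: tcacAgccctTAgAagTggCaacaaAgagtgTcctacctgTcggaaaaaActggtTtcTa
Ring1: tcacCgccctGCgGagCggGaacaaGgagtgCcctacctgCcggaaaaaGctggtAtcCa
For Rybp and Yaf2 the stretch differs at 8 bases (positions 97 to 156 of Rybp and 91 to 150 of Yaf2).
Rybp: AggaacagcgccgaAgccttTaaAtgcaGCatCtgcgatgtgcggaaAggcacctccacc
Yaf2: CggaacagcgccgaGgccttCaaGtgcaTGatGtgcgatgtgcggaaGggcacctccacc
The longest exact run that the coding sequences shared was 14 bases for Rnf2 and Ring1 and 23 bases for Rybp and Yaf2, both shorter than a read of 85 bases. No 85-base run of the annotated transcripts was common to any pair of the 10 genes.

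Other copies and neighbours did share runs of read length with 4 members. Rybp shared 283 of 4723 runs (5.99%) with its transcribed pseudogene Rybp-ps, as far as GENCODE annotates that copy. Kdm2b shared 11.01% of its runs with neighbouring or related genes, Pcgf1 7.54% with the predicted gene Gm8930 and Rnf2 1.73% with Trmt1l. Counts of these 4 genes are therefore uncertain, since the treatment of such reads in the counting is not stated. The shares are of distinct runs in the annotated transcripts and not of reads, so they do not give the size of that uncertainty. The annotated RefSeq span of no member overlapped that of another counted gene.

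Total counts were 13.8 to 25.3 M (M, 1e6) in wild type and 18.6 to 45.6 M in knockout, and every member had at least 46 counts in every library. Suz12 was at 51.7 to 76.6 CPM in wild type and at 11.9 to 21.8 CPM in knockout (CPM, counts per 1e6 of the scaled library), a log2 fold change of -2.06 with no overlap between the groups (edgeR adjusted p = 1.69e-05). Alveolar macrophage markers were abundant in all libraries, with 10 of 10 tested, 1 higher, 2 lower and a summed level of 22408 to 60698 CPM in wild type and 14705 to 41163 CPM in knockout. The largest part of this sum was Chil3, at 13734 to 50836 CPM in wild type and 5453 to 32245 CPM in knockout, so its range mainly follows that gene. The 8 monocyte markers summed to 122 to 356 CPM in wild type and 635 to 845 CPM in knockout (1 called higher), and the 8 interstitial macrophage markers to 8.13 to 12.5 and 19.2 to 27.5 CPM (1 called higher). Most of the monocyte sum was Nr4a1, at 69.1 to 274 CPM in wild type and 565 to 769 CPM in knockout. Each of the other monocyte markers overlapped between the groups. Among them, Ccr2 stood at 16.5 to 41.9 CPM in wild type and 6.97 to 36.8 CPM in knockout. Treml4 stood at 17.7 to 27.1 and 20.6 to 33.7 CPM, and Plac8 at 5.97 to 15.7 and 0.427 to 7.56 CPM. No marker of either list was at 0 in all 9 libraries. The part of these cells in the results below was not tested, and in bulk RNA fewer cells of a type and less RNA per cell cannot be told apart. Wild type library 3 was the shallowest. Xist was at 336 to 449 CPM in wild type libraries 1 to 3 and at 397 and 360 CPM in knockout libraries 2 and 5, and at most 0.134 CPM in the other four.

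Among the 10 members, all of which passed the count filter, 2 rose and 1 fell in knockout. The call was an edgeR quasi-likelihood test with p-values adjusted over all 12840 tested genes and a threshold of 0.05. Rnf2 and Rybp rose and Yaf2 fell. Of all tested genes 8.97% were higher and 11% lower, 19.9% in all, so that 3 called members of 10 is not far from the background share. The median log2 fold change of the members was 0.23, against 0.04 for all tested genes. In the 3 called members no library of one group reached the range of the other, as in 20.8% of all tested genes (10.9% higher and 9.87% lower in knockout), and in the other 7 the groups overlapped. The plot of CPM by library shows all 10 genes.

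**Figure D1:**
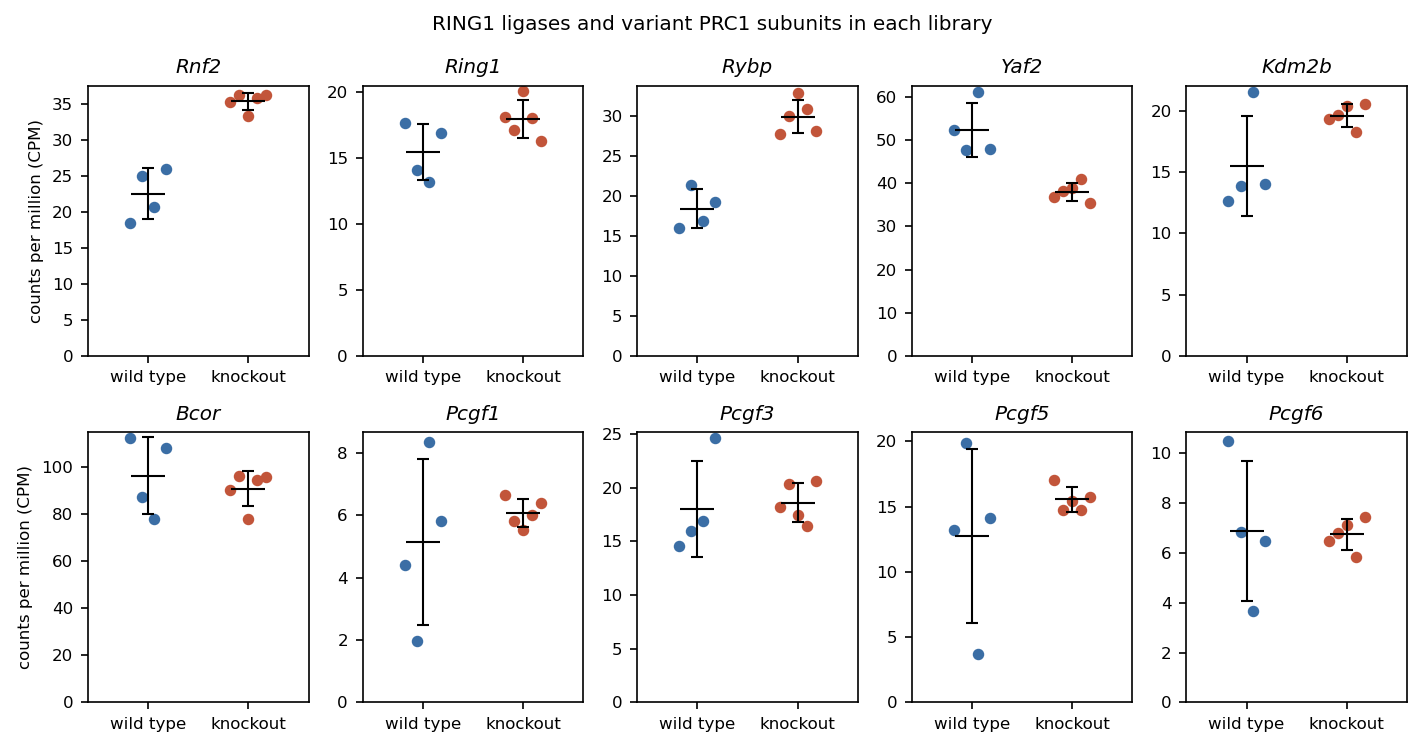
CPM (counts per 1e6 of the scaled library, linear axis from 0) of each of the 10 genes in 4 wild type (blue) and 5 knockout (red) libraries, one point per library, with the mean (horizontal bar) and SD (whiskers) of each group. The knockout points of Rnf2 and Rybp lie above, and those of Yaf2 below, all wild type points, and the points of Pcgf1, Pcgf5 and Pcgf6 are spread widely in wild type.

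The ligases came first in this comparison, since every PRC1 complex holds one of them. Rnf2 (Entrez Gene 19821, chromosome 1, positions 151469398 to 151500991 of GRCm38), which encodes RING1B, stood at 18.5, 25, 20.7 and 26 CPM in the wild type libraries. In the knockout libraries it stood at 35.2, 36.2, 33.3, 35.7 and 36.2 CPM. All 5 knockout libraries lay above the highest wild type library, and they differed little among themselves. The group means were 22.5 ± 3.55 CPM in wild type (SD, n = 4) and 35.3 ± 1.23 CPM in knockout (SD, n = 5). On the log2 scale the change was 0.65 (SE 0.12, 95% interval 0.38 to 0.92, edgeR adjusted p = 0.00246), or 1.57-fold.

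Ring1 (Entrez Gene 19763, chromosome 17, positions 34020792 to 34024680), which encodes the other ligase, RING1A, was not called. It stood at 17.7, 14.1, 13.2 and 16.9 CPM in wild type and at 18.1, 17.1, 20.1, 18.1 and 16.3 CPM in knockout. The groups overlapped, and the log2 fold change of 0.21 had a 95% interval of -0.09 to 0.52 (edgeR adjusted p = 0.341), which leaves room for a rise as well as for none.

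The balance between the ligases was examined as the log2 ratio of Rnf2 to Ring1 counts within each library, which does not depend on the scaling of libraries. It was 0.07, 0.82, 0.65 and 0.62 in wild type and 0.96, 1.08, 0.72, 0.98 and 1.15 in knockout, so that knockout library 3 lay within the wild type range. The mean ratio rose by 0.44, from 0.54 ± 0.33 (SD, n = 4) to 0.98 ± 0.16 (SD, n = 5; two-sided exact permutation p = 0.0238, adjusted p = 0.0238 over the 2 paralog pairs). Wild type library 1 was the lowest, and without it the difference was 0.28 (adjusted p = 0.0714, exact permutation test). Rnf2 was itself called and separate between the groups, so the ratio test is not independent of that call. Divided by gene length, Rnf2 and Ring1 were at nearly equal levels in wild type (a ratio of 0.993 ± 0.205, SD, n = 4), and Rnf2 was ahead in knockout (1.33 ± 0.145, SD, n = 5).

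Promoter sequence is given for both ligases because one was called and the other was not, and because CpG content is what KDM2B reads. The stretches run from 100 bases before to 30 bases from the annotated start, 5′ to 3′ on the minus strand of GRCm38.p6 (RefSeq), with every CpG in capitals. That of Rnf2 is chr1:151500962-151501091 and that of Ring1 is chr17:34024651-34024780.
Rnf2: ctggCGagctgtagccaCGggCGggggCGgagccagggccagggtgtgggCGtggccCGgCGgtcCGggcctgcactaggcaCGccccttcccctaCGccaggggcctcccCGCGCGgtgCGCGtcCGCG
Ring1: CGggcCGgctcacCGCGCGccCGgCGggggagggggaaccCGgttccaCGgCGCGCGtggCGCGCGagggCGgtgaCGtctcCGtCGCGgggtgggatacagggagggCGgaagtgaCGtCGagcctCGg
In the full window of 300 bases, 250 before and 50 from the start, Rnf2 held 30 CpGs and Ring1 37, against a median of 7 over 32851 promoter windows. Of the 10 members, 7 had such windows in the RefSeq table (Rnf2, Ring1, Kdm2b, Bcor, Pcgf3, Pcgf5 and Pcgf6, with 13 windows in all), and 12 of the 13 held more CpGs than that median, with 5 in an internal start of Pcgf5 and 49 in one of Kdm2b as the extremes. On either strand, the E2F core TCCCGC was found in a window of 3 members (Rnf2, Kdm2b and Pcgf5) and in 20% of all windows, and the AP-1 site TGAGTCA in 1 member (Pcgf3) and in 5.2% of all. The E-box CACGTG (7.15% of all windows) and the YY1 core AAGATGGC (2.75%) were found in none of the 7. The shares are per window, whereas a member counts if any of its windows matches. Kdm2b had 4 windows and Pcgf5 had 3, so the counts of members are not directly comparable with the shares. These matches describe the letters of the windows and are not shown to be sites.

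Rybp and Yaf2, which compete for the same place on RING1A or RING1B in variant PRC1, moved in opposite directions. Rybp (Entrez Gene 56353, chromosome 6, positions 100228565 to 100287358) stood at 16, 21.4, 16.9 and 19.2 CPM in wild type and at 27.7, 30, 32.9, 30.9 and 28.1 CPM in knockout. The lowest knockout library was above the highest wild type library. The group means were 18.4 ± 2.44 CPM in wild type (SD, n = 4) and 29.9 ± 2.11 CPM in knockout (SD, n = 5). On the log2 scale the change was 0.70 (SE 0.13, 95% interval 0.43 to 0.97, edgeR adjusted p = 0.00168), or 1.63-fold.

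The pseudogene Rybp-ps, which was counted apart from Rybp, stood at 4.15, 2.32, 10.2 and 6.94 CPM in wild type and at 9.13, 8.7, 9.75, 8.7 and 9.88 CPM in knockout (log2 fold change 0.66, edgeR adjusted p = 0.189, and 1.03 with edgeR adjusted p = 0.0352 after the centred length correction described below). With the counts of both summed, the log2 fold change of Rybp was 0.69 (edgeR adjusted p = 0.00106).

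Yaf2 (Entrez Gene 67057, chromosome 15, positions 93283833 to 93336935) was the one member that fell. It stood at 52.4, 47.6, 61.2 and 48 CPM in wild type and at 36.7, 38.1, 38.8, 40.9 and 35.4 CPM in knockout. The groups were again separate, with wild type library 3 the highest. The group means were 52.3 ± 6.33 CPM in wild type (SD, n = 4) and 38 ± 2.07 CPM in knockout (SD, n = 5). On the log2 scale the change was -0.46 (SE 0.11, 95% interval -0.68 to -0.23, edgeR adjusted p = 0.00705), or 0.727-fold.

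The log2 ratio of Rybp to Yaf2 counts was -1.71, -1.15, -1.86 and -1.32 in wild type and -0.41, -0.34, -0.24, -0.40 and -0.33 in knockout. Every knockout library was higher than every wild type library, and the knockout values lay close together. Since Rybp and Yaf2 were each already separate, in opposite directions, their ratio had to separate as well. The ratio test therefore adds no evidence to the calls on these genes. The mean went from -1.51 ± 0.33 (SD, n = 4) to -0.35 ± 0.07 (SD, n = 5), a difference of 1.16 (two-sided exact permutation test over 126 splits, p = 0.00794, which is the smallest it can give, adjusted p = 0.0159 over the 2 pairs). Per kilobase of gene length, Rybp was at 0.19 ± 0.0431 of the level of Yaf2 in wild type (SD, n = 4) and at 0.417 ± 0.0201 in knockout (SD, n = 5), so that Yaf2 remained the more abundant transcript in all 9 libraries.

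**Figure D2:**
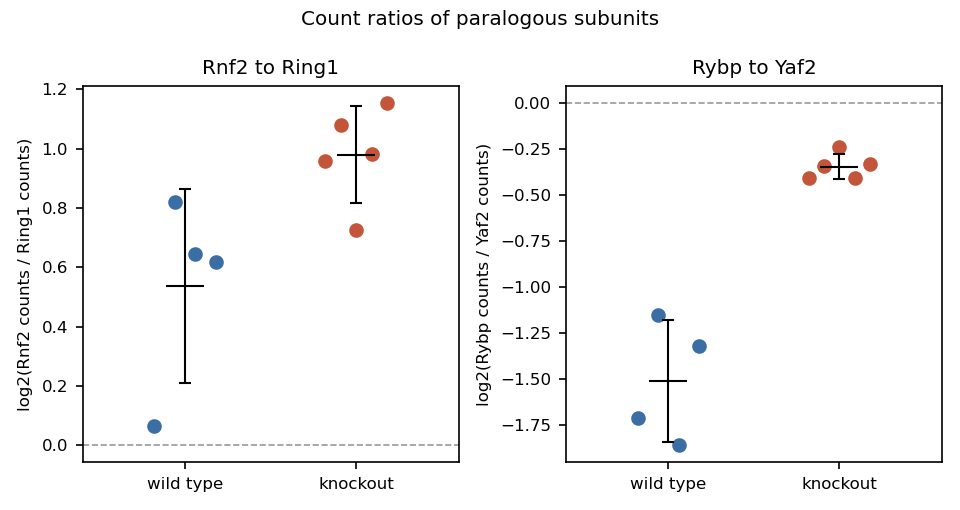
The log2 ratio of counts within each library for Rnf2 to Ring1 (left) and Rybp to Yaf2 (right), one point per library, wild type in blue (n = 4) and knockout in red (n = 5), with the mean and SD. The Rybp to Yaf2 ratio lies between -1.86 and -1.15 in wild type and between -0.41 and -0.24 in knockout, while the Rnf2 to Ring1 ratio of knockout library 3 (0.72) lies within the wild type range.

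Neither DNA-recruited subunit of PRC1.1 was called. Kdm2b (Entrez Gene 30841, chromosome 5, positions 122870664 to 122989270), a histone demethylase family protein that binds CpG DNA, stood at 12.6, 13.9, 21.5 and 14 CPM in wild type and at 19.3, 19.6, 20.4, 18.3 and 20.5 CPM in knockout. Wild type library 3 was above all knockout libraries and the other three were below them. The log2 fold change was 0.35 (95% interval -0.002 to 0.70, edgeR adjusted p = 0.158), and without wild type library 3 it was 0.55 (edgeR adjusted p = 0.00856). It was also called with limma voom (adjusted p = 0.0458) and with scaling by totals alone (edgeR adjusted p = 0.0424), while with the gene length corrections described below it was 0.24 or -0.026 (edgeR adjusted p = 0.37 and 0.934).

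Bcor (Entrez Gene 71458, chromosome X, positions 12036737 to 12160516), the corepressor that binds PCGF1, had the highest CPM of the 10 members. It stood at 112, 87.4, 77.9 and 108 CPM in wild type and at 90.2, 96.2, 78, 94.4 and 95.8 CPM in knockout, and the groups overlapped throughout. The log2 fold change was -0.09 (95% interval -0.33 to 0.16, edgeR adjusted p = 0.648). With the uncentred length correction described below, Bcor was called lower (-0.47, edgeR adjusted p = 0.00371). Bcor is X-linked, and in the 5 libraries with high Xist, 3 wild type and 2 knockout, the value was 0.03 (edgeR adjusted p = 0.951).

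None of the 4 PCGF members was called. Pcgf1 (Entrez Gene 69837, chromosome 6, positions 83077552 to 83080855), the PCGF of PRC1.1, stood at 4.43, 1.96, 8.34 and 5.81 CPM in wild type and at 5.53 to 6.66 CPM in knockout (log2 fold change 0.26, 95% interval -0.47 to 0.98). Pcgf5 (Entrez Gene 76073, chromosome 19, positions 36348329 to 36460970), the PCGF of PRC1.5, stood at 13.2, 19.9, 3.74 and 14.1 CPM in wild type and at 14.7 to 17.1 CPM in knockout (log2 fold change 0.27, 95% interval -0.40 to 0.95). Both genes had 1 wild type library well below the rest, library 2 for Pcgf1 and library 3 for Pcgf5. Without library 3 the log2 fold change of Pcgf5 was -0.01, and without library 2 that of Pcgf1 was -0.02.

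Pcgf3 (Entrez Gene 69587, chromosome 5, positions 108461259 to 108506976), of the closely related PRC1.3, stood at 14.6, 16, 16.9 and 24.6 CPM in wild type and at 16.4 to 20.6 CPM in knockout (log2 fold change 0.05, 95% interval -0.31 to 0.40). Pcgf6 (Entrez Gene 71041, chromosome 19, positions 47033617 to 47050939), of the germline gene repressor PRC1.6, stood at 10.5, 6.85, 3.66 and 6.48 CPM in wild type and at 5.85 to 7.46 CPM in knockout (log2 fold change -0.03, 95% interval -0.61 to 0.55). The adjusted p of these 4 genes was 0.599 to 0.953 by edgeR, and their intervals admit changes of either sign.

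The wild type libraries were more scattered than the knockout libraries for all 10 members. The coefficient of variation was 12.1% (Yaf2) to 52.5% (Pcgf5) in wild type and 3.47% (Rnf2) to 9.81% (Pcgf3) in knockout. The same direction held for 75.2% of 12775 tested genes detected in both groups, whose median coefficient of variation was 18.9% in wild type and 12.4% in knockout. Counts were fewer in wild type, and the part of depth in this spread was not tested.

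Levels can be compared between genes only per length, as CPM per kilobase. In wild type the order was Yaf2 (22.6 ± 2.73, SD, n = 4), Bcor (13.8 ± 2.36), Pcgf5 (8.44 ± 4.43), Ring1 (7.61 ± 1.06), Rnf2 (7.44 ± 1.17), Pcgf1 (5.88 ± 3.05), Pcgf3 (4.83 ± 1.2), Rybp (4.2 ± 0.559), Pcgf6 (3.27 ± 1.34) and Kdm2b (2.85 ± 0.747). Only the step from Yaf2 to Bcor was wider than the spread of the libraries, and the ranges of all other neighbours in this order overlapped. In knockout Yaf2 (16.4 ± 0.891, SD, n = 5) and Bcor (13 ± 1.08) still led, and Rnf2 came next (11.7 ± 0.405), followed by Pcgf5 (10.3 ± 0.634) and Ring1 (8.83 ± 0.707). Rybp was at 6.84 ± 0.482 CPM per kilobase in knockout, beside Pcgf1 (6.96 ± 0.514), and the ranges of the 2 genes overlapped there. Averaged over all 9 libraries, Yaf2 ranked highest, at percentile 68.4 of all tested genes on this scale, and Pcgf6 lowest, at percentile 28.9.

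The composition of the PCGF family was described with the 2 canonical PRC1 genes Bmi1 (PCGF4) and Pcgf2 added, as each gene's share of the summed counts per kilobase of all 6. The share of Bmi1 was 27 to 37.5% in wild type and 40.9 to 48.8% in knockout, with means of 32.3 ± 4.5% (SD, n = 4) and 44.9 ± 3.72% (SD, n = 5). That of Pcgf2 was 4.69 to 7.36% in wild type and 2.89 to 3.7% in knockout. As a gene, Pcgf2 was not called (log2 fold change -0.52, edgeR adjusted p = 0.179). Its groups overlapped, at 4.43 to 8.67 CPM in wild type and 4.03 to 5.18 CPM in knockout. The summed share of any other gene moves when Bmi1 moves, and no test was made on these shares. Pcgf5 held 22.7 ± 11.1% in wild type and 21 ± 1.97% in knockout, Pcgf1 16.6 ± 9.65% and 14.2 ± 0.954%, Pcgf3 13.2 ± 2.16% and 10.1 ± 0.814%, and Pcgf6 9.07 ± 4.18% and 6.57 ± 0.807%. The differences of 3 of these genes rested on single wild type libraries. That of Pcgf5, -1.65 percentage points (knockout minus wild type), was 2.18 without library 2 and -6.67 without library 3. That of Pcgf1, -2.42 percentage points, was -6.00 without library 2, 1.82 without library 3 and 0.965 with the gene length correction described below. That of Pcgf6, -2.50 percentage points, was -0.516 without library 1.

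**Figure D3:**
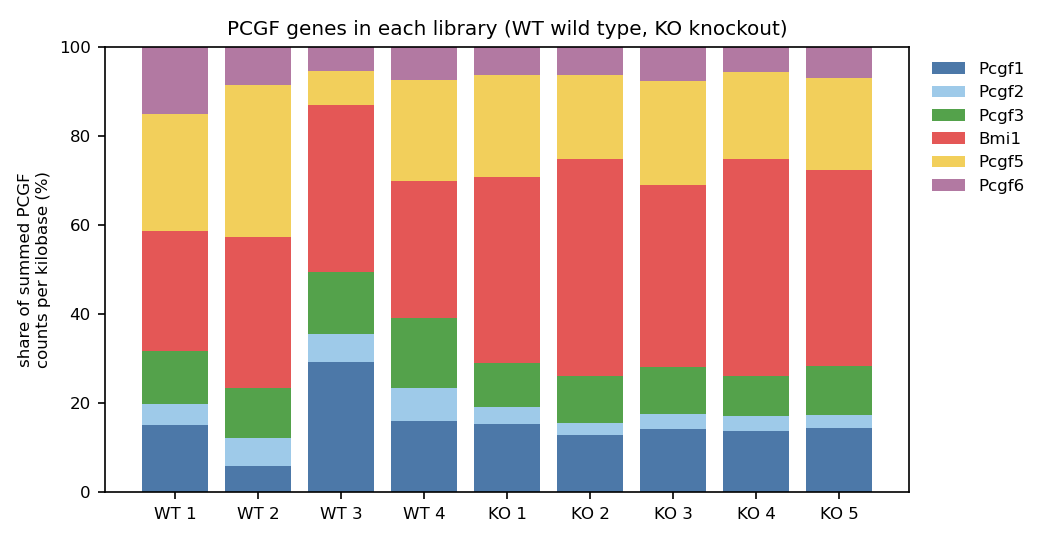
Share of each of the 6 PCGF genes in their summed counts per kilobase, in percent (bars stack to 100), for each of the 4 wild type (WT) and 5 knockout (KO) libraries. Bmi1 (red) takes 27 to 37.5% in wild type and 40.9 to 48.8% in knockout, and the Pcgf1 and Pcgf5 shares differ most among the wild type libraries.

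Among 13 tested canonical PRC1 partners, 3 were called higher and none lower, against 8.97% higher and 11% lower over all tested genes, and the median log2 fold change was 0.18. The list was not tested against the background or the other lists. Bmi1, a PCGF of canonical PRC1, stood at 32.3 to 47.2 CPM in wild type and at 64.9 to 91.2 CPM in knockout (0.91 on the log2 scale, SE 0.13, edgeR adjusted p = 3.47e-04). Scmh1, a Polycomb protein with a SAM domain, stood at 6.09 to 10.9 and at 12.7 to 16.8 CPM (0.77, SE 0.19, edgeR adjusted p = 0.0113). Neither gene overlapped between the groups, and Scmh1 was not called with the uncentred length correction described below (edgeR adjusted p = 0.077), which left 1 partner gene higher over all lists.

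Partners of the variant complexes gave 1 call, a decrease, in 20 tested genes, with the same 19.9% of all tested genes called as background. Of 3 tested PRC1.1 partners, Skp1, which binds KDM2B and is also shared with SCF ubiquitin ligases, fell, standing at 156 to 208 CPM in wild type and at 108 to 132 CPM in knockout (-0.69 on the log2 scale, SE 0.10, edgeR adjusted p = 2.89e-04). The Skp1 gene overlaps 332 bases of Tcf7 (782 counts over the 9 libraries, against 36204 for Skp1), and Csnk2b, Usp16 and Stag3 also overlap other counted genes. Usp16 overlaps 191 bases of Cct8, which had 66689 counts against 9950 for Usp16. Stag3 overlaps 6370 bases of Gpc2 (103 counts, against 338 for Stag3). Csnk2b overlaps 606 bases of Gpank1 (3004 counts, against 27695 for Csnk2b). None of 6 tested PRC1.3 and PRC1.5 partners was called by edgeR. The smallest adjusted p was 0.124, for the casein kinase 2 subunit Csnk2b (log2 fold change -0.18). An unadjusted edgeR p under 0.05 was found for 2 of the 6, and for 4123 of all 12840 tested genes. None of 11 PRC1.6 partners was called either (1 unadjusted), and their median of 0.04 equalled that of all tested genes after rounding. The DNA-binding partner Tfdp2 had the smallest adjusted p (0.0663 by edgeR, log2 fold change 0.35), and with DESeq2 it was called (adjusted p = 0.0436).

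Genes that remove ubiquitin from H2A, or assist in it, were examined as the counterpart of the ligases. None of 6 tested was called by edgeR, and their median log2 fold change was 0.10. An unadjusted p under 0.05 was found for 1 of them, against 4123 of all 12840 tested genes. The deubiquitinase Usp16 stood at 29.1, 40.3, 21.1 and 22.9 CPM in wild type and at 36 to 40.9 CPM in knockout (log2 fold change 0.47, edgeR adjusted p = 0.0613). Wild type library 2 lay within the knockout range, and without it the value was 0.69 (edgeR adjusted p = 0.00245). Usp16 was also called with DESeq2 (adjusted p = 0.0397), with limma voom (adjusted p = 0.0404), with scaling by totals, without the count filter and with thinned counts.

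Of 20 germline genes that PRC1.6 silences in other cells, 3 passed the count filter and none was called by edgeR. Of these 3, 0 had an unadjusted p under 0.05, against 4123 of all 12840 tested genes. The other 17 were at most 0.44 CPM on average over the 9 libraries and were not tested in the main comparison. Of the 20, 13 had no count in any wild type library and 7 had none in any library. The same held for 12295 and 8773 of all 27179 genes, so counts in knockout only were not particular to this list. Dazl, Smc1b, Slc25a31, Stk31, Tex11 and Meioc had counts in knockout libraries only, at most 16 in a library. No listed gene had counts in wild type only, and Sycp3 was highest in wild type library 2 (2.04 CPM). Over the whole table, 12396 to 13372 genes were detected in wild type libraries and 15364 to 16757 in knockout libraries. The part of depth in these differences was not tested. The cohesin subunit Stag3 had the smallest adjusted p, at 0.27, 2.52, 5.56 and 1.05 CPM in wild type and 0.45 to 1.63 CPM in knockout (-1.38 on the log2 scale, SE 0.75, edgeR adjusted p = 0.228). The highest value was that of wild type library 3, without which the log2 fold change was -0.51 (edgeR adjusted p = 0.666), and with limma voom it was -0.62 (adjusted p = 0.586).

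**Figure D4:**
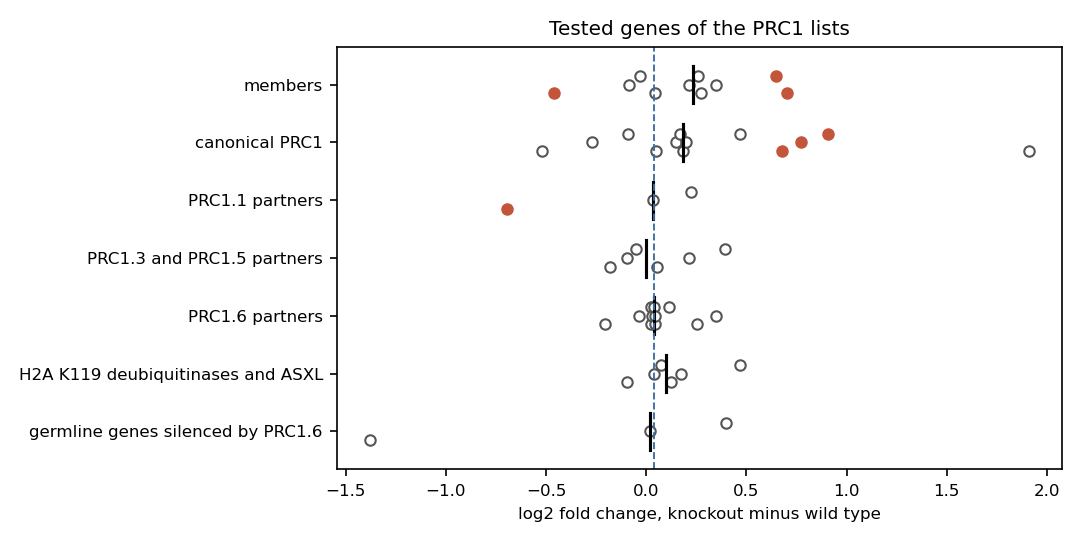
Log2 fold change (knockout minus wild type) of each tested gene of the 10 members and of the 6 lists of related genes, filled red where the adjusted p was under 0.05 by edgeR and open otherwise. Black bars mark each list's median and the dashed line the median of all tested genes (0.04); filled points are 3 members, 3 canonical PRC1 genes and Skp1.

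Fold changes in this table followed gene length, so all genes were also fitted with a length correction, in which the smooth trend of each library on gene length entered the edgeR fit. The members are 874 to 7011 bases long. The correction was first run without centring. It then also rescaled the libraries, with the median change over all tested genes at -0.20 on the log2 scale, 3.64% of them called higher and 24.4% lower (28% in all). In that fit Rnf2 was at 0.39 (edgeR adjusted p = 0.0278), Rybp at 0.39 (0.0388) and Yaf2 at -0.69 (6.33e-04), and Bcor was called lower as well, so that 2 members were higher and 2 lower. After these values were seen, the trend was centred in each library, which kept the scaling of the main comparison (8.61% of all tested genes higher and 7.32% lower, 15.9% in all). The centred values were 0.64 for Rnf2 (edgeR adjusted p = 0.00307), 0.63 for Rybp (0.00363) and -0.44 for Yaf2 (0.00827), and no other member was called. The call on Bcor therefore depends on this choice. The ratios within a library do not depend on it, and the corrected difference was 1.07 for Rybp to Yaf2 and 0.39 for Rnf2 to Ring1 (exact permutation, adjusted p = 0.0159 and 0.0238). Within the 5 libraries of high Xist the log2 fold changes of Rnf2, Rybp and Yaf2 were 0.74, 0.66 and -0.57, and none was called there (adjusted p = 0.0575, 0.103 and 0.0775 by edgeR). With Xist as a covariate over all 9 libraries they were 0.63, 0.68 and -0.46, and all were called (adjusted p = 0.00558, 0.00453 and 0.0154 by edgeR).

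**Figure D5:**
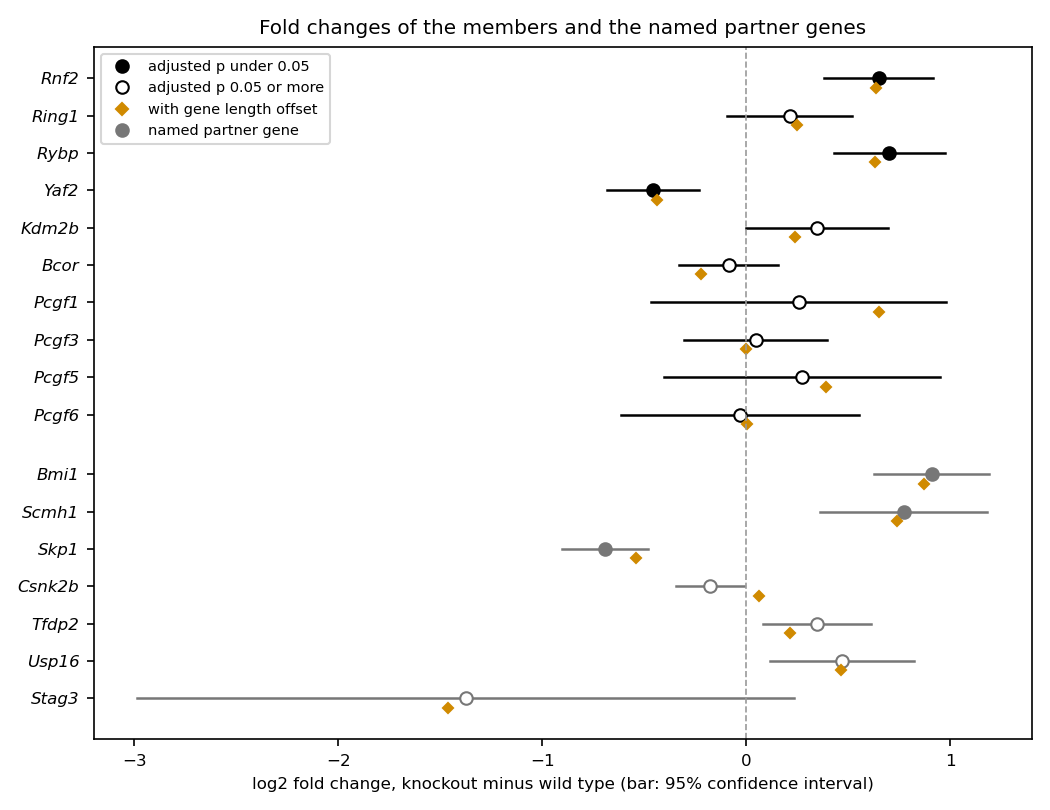
Log2 fold change (knockout minus wild type) of the 10 members (black) and of the 7 named partner genes (grey), with 95% confidence intervals; filled circles have an adjusted p under 0.05 by edgeR, and orange diamonds give the value with the centred gene length correction. The intervals of Rnf2 (0.38 to 0.92), Rybp (0.43 to 0.97) and Yaf2 (-0.68 to -0.23) lie away from 0, and those of the 7 other members include it.

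Likeness of profile was measured as the root mean square difference in log2 CPM over the 9 libraries, each gene centred on its own mean, and was computed against 11755 named genes for the 3 called members. The nearest genes to Rybp were St6gal1, a sialyltransferase (0.0984), and Rnf2 itself (0.113), against a median of 0.465. The nearest to Rnf2 were the transcription factor Tcf12 (0.101) and Aasdh (0.107), and the nearest to Yaf2 were the proteasome subunit Psmd6 (0.0603) and the respiratory chain subunit Uqcrfs1 (0.0604). Psmd6 went from 130 ± 18.9 to 90.6 ± 2.97 CPM and St6gal1 from 45.2 ± 4.81 to 76.1 ± 4.51 CPM (SD, n = 4 and n = 5). Among the 45 pairs of members, Rnf2 and Rybp were the closest (0.113), and Pcgf1 and Pcgf5 were the farthest apart (1.06). This measure includes the change between genotypes, so genes with similar log2 fold changes lie close, and closeness is no evidence beyond the calls. Pcgf1 was low in wild type library 2 (1.96 CPM) and Pcgf5 in wild type library 3 (3.74 CPM).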

How the data were processed

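RNA of 9 libraries was measured by single-end sequencing of TruSeq libraries, per the labels' protocols. The files the authors deposited hold raw counts for each gene beside its length. They were made with featureCounts on mm10, per the submitters' processing notes, with no aligner, annotation release or strand setting named. The 9 single tables equalled the joint table, which was used. RefSeq (GRCm38.p6) named 25275 of 27179 identifiers.

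Counts were tested in R 4.3.3 with edgeR 4.0.16 (robust quasi-likelihood test, TMM scaling, filterByExpr by group, no covariate), with Benjamini-Hochberg adjustment over 12840 genes and a threshold of 0.05. Standard errors and 95% intervals were derived from the test statistic. Ratios used a pseudocount of 0.5 and exact permutation over 126 splits. Transcript runs came from GENCODE M21 and promoters from RefSeq. For gene length, deviations in log2 CPM were smoothed on log2 length by loess (span 0.5) for every library and used as an offset. This was planned without centring. Centring the offset in each library, which keeps its scaling, was chosen after the uncentred values were seen and removed a call on Bcor, so both are reported. The fits were tested on simulated data.

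The members, gene lists, length correction and tests were chosen with earlier results of these data known. The named genes were Suz12, the 10 members, up to 4 called genes of each list (or the one with the smallest adjusted p), and the 2 nearest profiles of each of the 3 members with the smallest adjusted p. One called partner gene enters the counts but is not reported here by name. Rybp-ps, Chil3, Nr4a1, the other single monocyte markers and the single germline genes other than Stag3 were named after their values were seen. The values of Pcgf2 as a single gene were also added after they were seen. Alternatives were other scalings, filters, DESeq2 1.42.0, limma voom 3.58.1, both length corrections, Xist as a covariate, the replicate number as a block and leaving out each library. Added after seeing the data were the centred length offset, the libraries of high Xist, counts thinned to equal totals, and Rybp summed with Rybp-ps. P-values measure the spread between these libraries.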

Additional observations from a re-analysis of the deposited data

Results flagged for a closer look

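Kdm2b in wild type library 3 stood apart from its group at 21.5 CPM, against 12.6 to 14 CPM in the other three wild type libraries. It was flagged because its gap to the nearest library took up 0.846 of the range of the group. In all 36 groups of values were examined in this way (the members, the ratios and the PCGF shares in each genotype), and chance flags about 1 in 20 groups.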

How the results depend on the processing

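Rnf2 and Rybp stayed higher and Yaf2 lower in knockout, past the threshold, under every alternative except the 5 libraries of high Xist. There 0 members were called higher and 0 lower, with 199 genes higher and 646 lower over all tested genes and 1 partner gene higher. The uncentred length offset gave 468 genes higher and 3131 lower, 2 members lower (Yaf2 and Bcor), and 1 partner gene higher and 9 lower. Centring it, a choice made after seeing those values, changed the median over all tested genes from -0.20 to 0.06 (log2). In the 9 fits that each left out 1 library, the log2 fold change was 0.57 to 0.73 for Rnf2, 0.65 to 0.79 for Rybp and -0.50 to -0.37 for Yaf2. Scaling by totals alone moved the median of all tested genes from 0.04 to 0.15 and gave 1960 genes higher and 5 partner genes higher, and DESeq2 gave 6 partner genes higher. Leaving out 1 library gave 3 to 5 partner genes higher (5 without wild type library 2 or 4).

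The Rnf2 to Ring1 difference was 0.285 to 0.537 with 1 library left out (adjusted p = 0.0179 to 0.0714, exact permutation) and the Rybp to Yaf2 difference 1.05 to 1.28 (0.0179 to 0.0571). Replicate numbers are shared between the groups, but the deviations of same-numbered libraries correlated at 0.04, 0.03, -0.06 and 0.11, so the numbers were not taken as pairs. With the replicate block the differences were 0.399 and 1.16 (exact permutation, adjusted p = 0.125, the smallest 4 pairs allow), 741 genes were higher, and Rnf2, Rybp and Yaf2 were called.

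Signs turned only among genes that were not called. The log2 fold change of Bcor was 0.0293 with scaling by totals and 0.0286 at high Xist. That of Pcgf6 was 0.073 with scaling by totals, 0.000674 with the centred length offset, 0.0211 with Xist as a covariate, 0.012 with the block and 0.0295 with thinned counts. That of Pcgf3 was -0.256 and -0.00259 with the uncentred and centred length offset and -0.00776 with thinned counts. Csnk2b was at 0.0642 with the centred offset, and Kdm2b at -0.0259 and Tfdp2 at -0.0331 with the uncentred one. Leaving out 1 library gave -0.16 to 0.00639 for Bcor, -0.0152 to 0.60 for Pcgf1, -0.0324 to 0.24 for Pcgf3, -0.00901 to 0.57 for Pcgf5 and -0.22 to 0.256 for Pcgf6. The knockout minus wild type difference in PCGF share, with 1 library left out, was -6.67 to 2.18 percentage points for Pcgf5 and -6.00 to 1.82 for Pcgf1. The cause of these turns was not tested.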
